A study of Mus musculus with 17 samples.

Results

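The spinal cord of naïve mice is the reference against which the targeted EAE mice of the same study were set, and its own transcriptome is described here. The rule took the samples labelled as naïve spinal cord and no others, which gave 6 of the 17 arrays in the series. These were female mice labelled C57BL/6 (C57BL/6J in the study's methods) and aged 8 weeks in which no EAE was induced and no antibody was given. After perfusion with PBS, a 4.5 mm piece of thoracic cord was taken from each mouse, and its RNA was hybridised to its own 1-colour Affymetrix Mouse Genome array with 45101 probe sets. The other 11 arrays, from mice with targeted EAE given an isotype control or an anti-RGMa antibody, entered only the choice of probe set. A whole piece of cord holds grey and white matter, vessels and attached meninges, and in such bulk RNA fewer cells of a type and less RNA per cell cannot be told apart. The mice are called mouse 1 to mouse 6 by their label numbers, which carry no order.

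Signals are log2 of the deposited values, without an offset. Each gene was represented by 1 probe set, which gave 18193 genes, and genes were ranked by the mean signal of the 6 mice, with rank 1 the brightest. Probe sets differ in how well they bind, so a rank orders probe set signals and not amounts of transcript. A log2 signal of 8 was used as a floor for bright genes, and the SD between mice was larger below it. The median SD was 0.96 in the 5190 genes with a mean under 6, 0.26 between 6 and 8, 0.15 between 8 and 10, 0.11 between 10 and 12 and 0.07 from 14 upward. In all 6 mice 8987 genes reached 8, which is 49.4% of the genes, and 8016 genes were below 8 in each mouse.

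The thoracic cord carries motor and autonomic output in its ventral and intermediate grey matter and receives touch, temperature and pain signals in its dorsal horn. Long axons of ascending and descending tracts fill its white matter, wrapped in myelin by oligodendrocytes. Local inhibition in the cord uses glycine as well as GABA, whereas fast excitation relies mainly on glutamate loaded by the vesicular transporter VGLUT2. Along the body axis the position of a cord segment is reflected in the Hox genes it expresses, with low paralog numbers toward the head and high ones toward the tail.

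The array of mouse 6 stood apart from the rest. Genes in which 1 mouse lay far from the other 5 (a gap beyond Dixon's critical value) made up 7.00% of the 9534 genes with a mean of 8 or more, and in 357 of these 667 genes that mouse was mouse 6. The other mice accounted for between 40 and 100 genes each. Its median correlation with the other arrays across genes was 0.979, and that of the others between 0.986 and 0.988. Control probe sets at the 3' and 5' ends of a transcript read how complete the labelled RNA was, since labelling starts at the 3' end. The log2 ratio of 3' over 5' signal for Actb was 0.87 in mouse 6 and 0.48 to 0.62 in the others, and for Gapdh -0.31 against -0.72 to -0.62. For Pcx it was 3.37 against 1.53 to 2.63, while for Tfrc mouse 6 (2.13) lay within the range of the others. The part of RNA quality in the values of mouse 6 was not tested. No arrays held identical values.

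**Figure D1:**
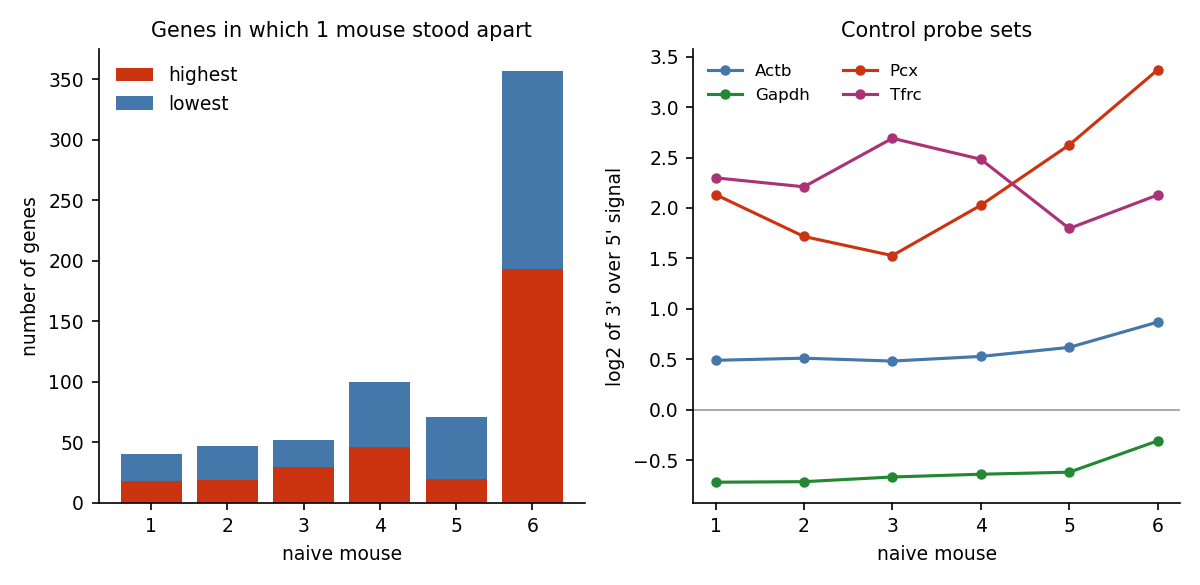
Left, number of genes (y axis) with a mean log2 signal of 8 or more in which each naïve mouse (x axis) stood apart, above (red) or below (blue) the other 5. Right, log2 ratio of 3' over 5' control signals for 4 transcripts, with lines that only join the values of a transcript. Mouse 6 holds 357 of 667 genes and the highest ratio for Actb, Gapdh and Pcx.

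The 30 brightest probe sets included genes of myelin, axons and synapses, astrocytes, protein synthesis and respiration. The first 10 were ND5 (a subunit of complex I encoded in mitochondrial DNA), Mbp (a main protein of compact myelin), Fth1 (ferritin heavy chain), Hspa8 (a constitutive chaperone), Mobp (a myelin protein), Rps29 (a ribosomal protein), Scd2 (a fatty acid desaturase of myelin lipid synthesis), Snap25 (a SNARE protein of synaptic vesicle fusion), Malat1 (a long nuclear RNA) and Eef1a1 (a translation elongation factor). Ranks 11 to 20 went to Tpt1, Nefl, Stmn3, Ndrg4, Tuba1a, Ptgds, Sparcl1, Aldoc, Atp1b1 and Mt1. Nefl is the light neurofilament chain of axons, Sparcl1 and Aldoc are astrocyte genes, and Ptgds makes prostaglandin D2 in oligodendrocytes and meninges. The next 10 were Actb, Tmsb4x, Rpl38, Cpe, Norad, Cnp, Cox6a1, Qdpr, Ckb and Pfn2. The mean log2 signal ran from 15.32 for rank 1 to 14.34 for rank 30, and the SD of these 30 genes lay between 0.04 and 0.17. Of the 30, 11 were read by probe sets whose names mark that they may bind several transcripts. From rank 4 to rank 30 the means of neighbouring genes differed by less than the SD of either.

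Markers of neurons, astrocytes and oligodendrocytes filled the top of the ranking. All 22 measured neuron genes were at 8 or more in every mouse, beside 49.4% of all genes. Of the 22, 19 were in the top 10% of genes, and the median percentile was 97.5. Signals of Snap25 were 14.86, 14.75, 14.74, 14.71, 14.72 and 14.71 in mice 1 to 6. These values lay within 0.15 of each other, with mouse 1 the highest. Of 20 astrocyte genes, 19 reached 8 in all mice and the median percentile was 97.3. Aqp4, the water channel of astrocyte endfeet, was at 13.35 ± 0.09 and Gfap, the astrocyte intermediate filament, at 12.82 ± 0.14 (SD, n = 6, as for all values given in this form). All 22 measured genes of myelin and oligodendrocytes were at 8 or more in every mouse, with a median percentile of 96.7, and their transcription factors Olig1 and Olig2 were among them. The oligodendrocyte precursor list was lower, with 9 of 11 genes at 8 or more in all mice and a median percentile of 71.9. Its brightest member was Bcas1 (13.84 ± 0.10, rank 86), which also marks newly forming oligodendrocytes.

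**Figure D2:**
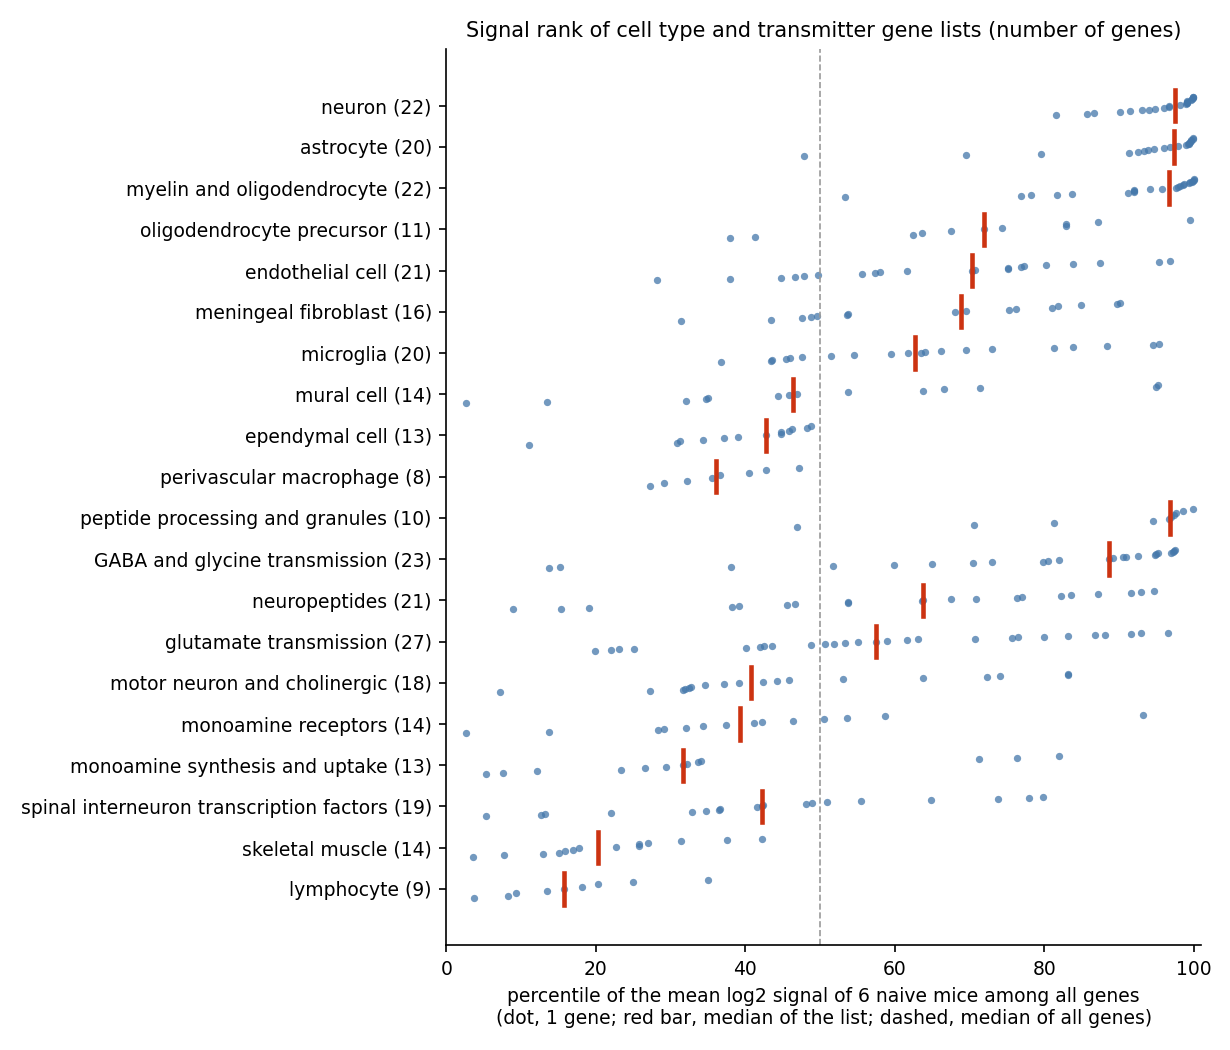
Percentile of each gene's mean log2 signal over 6 naïve mice among 18193 genes (x axis) for 20 gene lists (y axis, number of measured genes in brackets). Dots are genes, red bars list medians and the dashed line the median of all genes: neuron, astrocyte and myelin lists lie far to the right, at medians of 97.5, 97.3 and 96.7, and skeletal muscle and lymphocyte lists to the left, at 20.2 and 15.8.

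Microglia, vessels and lining cells of the cord gave weaker signals. Of 20 microglia genes, 14 passed, which here and in the following means 8 or more in every mouse, beside 49.4% of all genes. Csf1r (12.09 ± 0.10), the receptor on which microglia depend, and Ctss led the list, and the median percentile was 62.6. Of 21 endothelial genes, 15 passed, with Itm2a (12.50 ± 0.11) and the blood-brain barrier glucose transporter Slc2a1 (12.10 ± 0.23) brightest. The tight junction protein gene Cldn5 was at 9.94 ± 0.16. Mural cell genes passed in 6 of 14, with Rgs5 and Vtn in the top 10% of genes. None of the 13 ependymal genes reached 8 in every mouse, although Mia and Rarres2 had means just above it, and none of the 8 perivascular macrophage genes had a mean of 8. Lymphocyte genes (0 of 9), neutrophil genes (0 of 8) and adipose genes (0 of 6) also gave no member at 8 in every mouse. Peripheral nerve genes passed in 3 of 8, erythroid genes in 2 of 8, interferon response genes in 1 of 9 (Ifit3, 8.94 ± 0.27), cartilage and bone genes in 1 of 8 (Dmp1) and genes of other organs in 1 of 27 (Krt10, a keratin). These counts place the genes that did not pass below the floor in at least 1 mouse and do not show that their transcripts were absent.

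Genes of inhibitory transmission had a higher median percentile than those of excitatory transmission. Of 23 genes of GABA and glycine transmission, 19 were at 8 or more in all mice, beside 49.4% of all genes, with a median percentile of 88.7. The glycine transporter gene Slc6a5, a marker of glycinergic neurons, had signals of 12.01, 12.07, 12.06, 12.07, 12.21 and 12.10 in mice 1 to 6. The mice thus lay within 0.19 of each other, with mouse 5 the highest. Gad1, which makes GABA, was at 12.62 ± 0.09, the glycine receptor genes Glrb and Glra1 at 12.69 ± 0.05 and 12.01 ± 0.12, and the vesicular transporter gene Slc32a1 at 11.58 ± 0.11. Among glutamate genes, 17 of 27 passed, and the median percentile was 57.5. Slc17a6, which encodes VGLUT2, was at 12.38 ± 0.12, whereas Slc17a7, which encodes the VGLUT1 of cortical neurons, was at 5.40 ± 0.32. Gria2 (11.63 ± 0.12) and Gria4 (11.43 ± 0.18), both AMPA receptor subunits, followed Slc17a6 in this list. Slc17a7 and the serotonin and noradrenaline genes given next were picked after their values were seen.

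Transcripts of neurons whose cell bodies lie in the brainstem were dim. Of 13 genes of monoamine synthesis and uptake, only Maoa, Maob and Ddc passed, Ddc being the aromatic amino acid decarboxylase also known from cells around the central canal. The serotonin genes Tph2 and Slc6a4 had means of 3.25 and 2.83, and the noradrenaline gene Dbh was at 6.61 ± 0.86. The receptor gene Htr2c, in contrast, was at 11.68 ± 0.08 (rank 1230), and 3 of 14 monoamine receptor genes passed. Cholinergic and motor neuron genes passed in 6 of 18. Prph (10.57 ± 0.21), a filament of neurons with axons outside the cord, and Ache (10.56 ± 0.18), the enzyme that splits acetylcholine, led this list. The vesicular acetylcholine transporter gene Slc18a3 was at 9.19 ± 0.18 but Chat, which makes acetylcholine and shares its locus, only at 6.40 ± 0.43, so the signals of these neighbouring genes cannot be read as amounts.

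Of 21 neuropeptide genes 13 were at 8 or more in every mouse, beside 49.4% of all genes, with a median percentile of 63.7 and 3 genes in the top 10%. Penk, the precursor of enkephalins, ranked first in the list with signals of 12.07, 11.89, 11.86, 11.85, 11.96 and 12.06. Sst (11.62 ± 0.09), Tac2 (11.43 ± 0.07) and Tac1 (10.90 ± 0.27), the precursors of somatostatin, neurokinin B and substance P, followed it, all of them peptides of dorsal horn interneurons. Signals of Tac1 were 10.58, 10.70, 10.85, 11.37, 10.91 and 11.00, so that mouse 4 was highest. The machinery that cuts and stores peptides was brighter still, with 9 of 10 genes passing and a median percentile of 96.8. Its leading member Cpe, carboxypeptidase E, held rank 24. Of 6 hypothalamic peptide genes, Oxt passed at 8.46 ± 0.22. Of 13 genes of forebrain or cerebellum, Lamp5, Ppp1r1b and Rgs9 passed, and Lamp5 (12.86 ± 0.08) was in the top 10% of genes. Among 19 transcription factors of spinal interneurons, 6 passed, with Nfib, Zfhx3, Maf and Zfhx4 brightest.

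Hox signals were highest in the middle of the paralog series. Of 33 measured genes, 16 (48.5%) were at 8 or more in all mice, near the 49.4% of all genes. These 16 belonged to paralog groups 2 to 10. The brightest were Hoxa9 (11.92 ± 0.07), Hoxc8 (11.44 ± 0.04) and Hoxd8 (11.19 ± 0.06), all of groups 8 and 9. The 7 genes of groups 11 to 13 had means between 1.97 (Hoxb13) and 5.34 (Hoxd13). Genes of group 10, known for their role at lumbar level, differed between mice. Hoxa10 had signals of 8.62, 8.63, 8.87, 9.20, 9.66 and 9.50, and Hoxc10 of 8.82, 8.54, 8.64, 8.95, 9.53 and 9.72. Mice 5 and 6 were the highest in both, and each of mice 4, 5 and 6 was above each of mice 1 to 3. Mice 4 to 6 were all above mice 1 to 3 in 5 of the 33 Hox genes and in 9.90% of all genes. Hoxd10 was dim, at 0.61, 5.02, 2.60, 6.29, 8.00 and 7.80, with the same mice at the top. These 3 genes were highest in mouse 5 or 6, as were 40.3% of all genes. No label gives the exact level at which each piece was cut, and its part in these values was not tested.

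**Figure D3:**
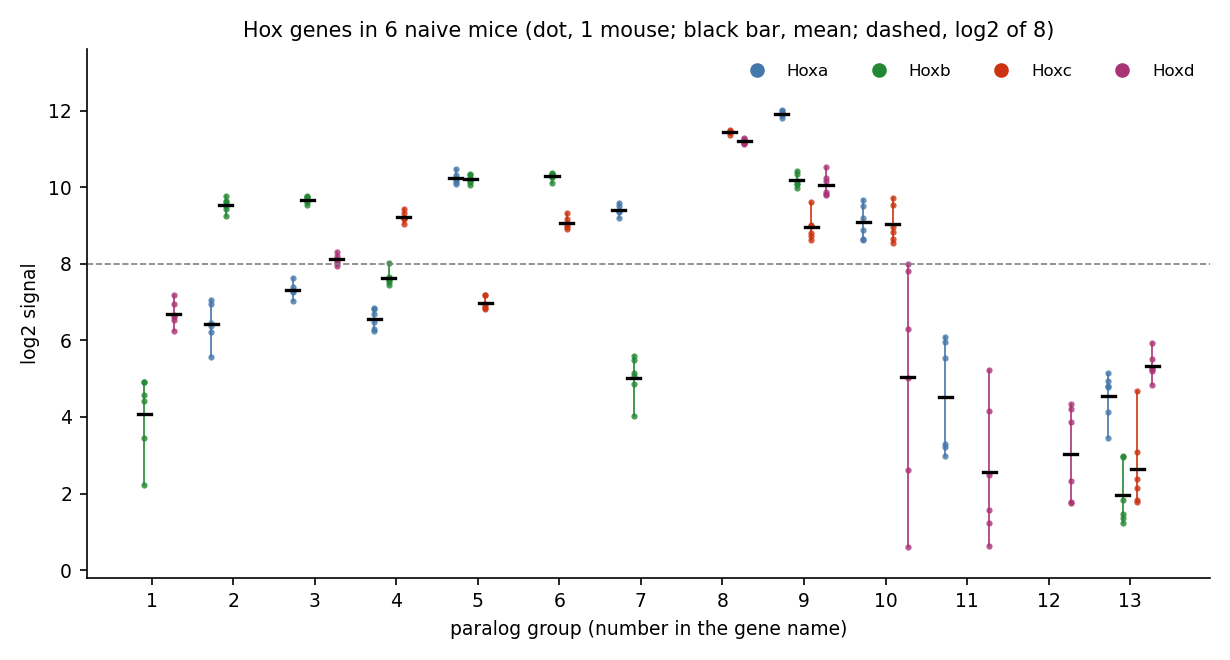
Log2 signal (y axis) of 33 Hox genes by paralog group (x axis) and cluster (colour), with a dot per naïve mouse and a black bar at the mean. Signals are above the dashed line at 8 mainly in groups 2 to 10 and highest in groups 8 and 9, and the dots of Hoxa10 and Hoxc10 are spread over about 1 unit.

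Genes of RGMa, the antibody target studied in this series, and of its receptors were measured in naïve cord. Rgma itself, the gene of repulsive guidance molecule a, had signals of 8.05, 8.06, 8.24, 8.45, 8.19 and 8.40, near the middle of the ranking (percentile 50.2). Its receptor gene Neo1 was at 11.04 ± 0.05. The bone morphogenetic protein receptor genes Bmpr2 (12.52 ± 0.04), Bmpr1a (10.50 ± 0.08) and Bmpr1b (9.47 ± 0.14) and the activin receptor genes Acvr2a (9.59 ± 0.08) and Acvr1 (9.26 ± 0.08) also passed. Rgmb was at 9.61 ± 0.09 and Unc5b at 9.73 ± 0.26, and Hjv (6.42 ± 0.29), known from liver and muscle, was the 1 of the 10 genes below 8. Sex chromosome genes fitted the labelled sex, with Xist, the RNA of X inactivation, at 13.25 ± 0.13, and Kdm5d, Uty and Eif2s3y of the Y chromosome at means of 3.73, 3.57 and 3.57.

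Housekeeping programs ranked high. Of 41 ribosomal protein genes 36 passed, with a median percentile of 98.8, and of 78 genes of oxidative phosphorylation 71 passed, with a median percentile of 97.9. All 9 heat shock genes passed. Their spread was not uniformly small, since the SD was 0.43 for Hspa1b, an inducible chaperone gene, 0.42 for Bag3, a cochaperone gene, and 0.46 for the ribosomal gene Rps27. Of the ribosomal genes with a mean of 8 or more, 30 of 37 were highest in mouse 6, and of the oxidative phosphorylation genes 40 of 72, whereas 31.6% of all genes with that mean were highest in mouse 6. The mean of the ribosomal list was 12.40 in mouse 6 and between 12.22 and 12.35 in the others. The mean of the oxidative phosphorylation list was highest in mouse 4, at 12.42 against 12.39 in mouse 6, where 15 of the 72 genes were lowest.

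Genes in which mice differed were few. The median SD of the 9534 genes was 0.12, and 37 genes, or 0.388%, had an SD over 0.5. The genes just inside and just outside that value had an SD of 0.501 and 0.498. Without mouse 6, 42 genes passed, 30 of them shared with the 37. With no filter on dim genes, whose SD was larger, 4507 genes passed. Of the 37, 20 were highest in mouse 3 and 14 were lowest in mouse 4. Of the 9534 genes, 13.3% were highest in mouse 3 and 15.7% lowest in mouse 4. The most even genes were 1700123O20Rik, Srsf6, Ppp1cc, Rasa1, Aasdhppt, Glud1, 2210016F16Rik, Ddx17, Ccni and Rps4x, with an SD between 0.013 and 0.018. A second probe set of the same gene gave another reading of the order of mice in 3819 genes. The same mouse was highest with both probe sets in 29.5% of these genes, in 46 of the 100 with the largest SD and in 16 of the 100 with the smallest. Over the mice the median correlation between both readings was 0.34, 0.65 and 0.23 in these sets, a description in which both readings share the array. Of the genes with an SD over 0.5, 10 had such a second reading. The same mouse was highest with both in 3 of these 10 and lowest with both in 4, with a median correlation of 0.88.

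**Figure D4:**
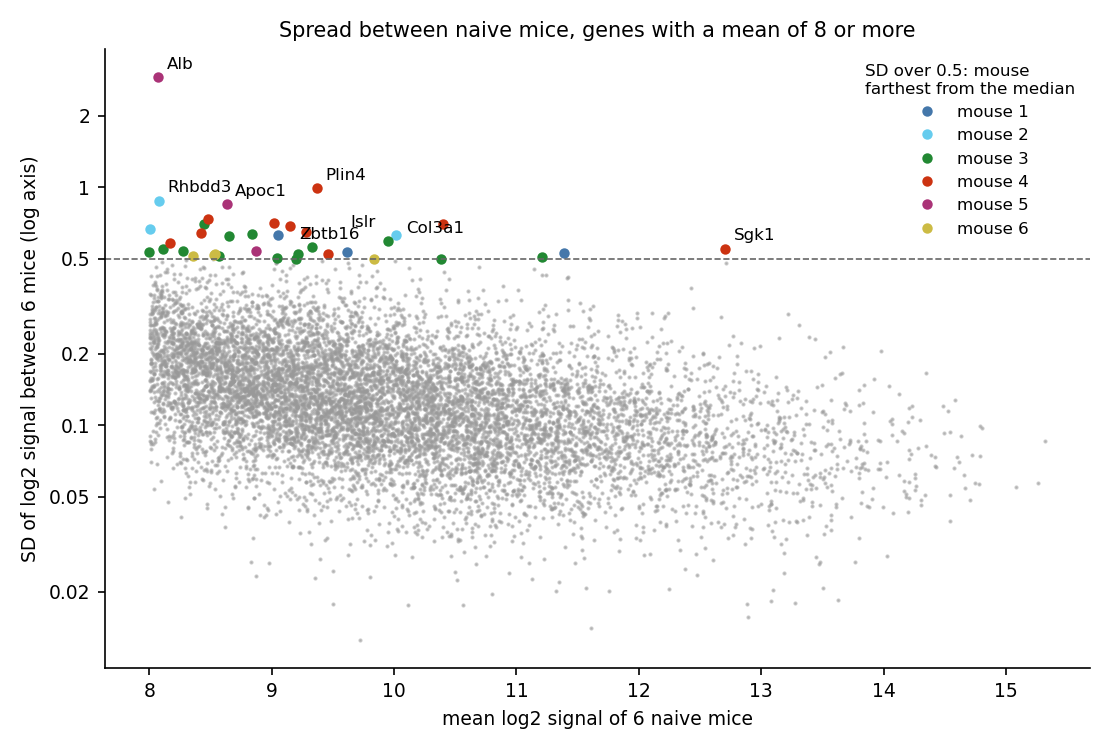
SD between 6 naïve mice (y axis, log scale) against mean log2 signal (x axis) for the 9534 genes with a mean of 8 or more. Coloured points are the 37 genes over the dashed line at 0.5, by the mouse farthest from the median, with Alb (SD 2.90) and Plin4 (SD 0.99) at the top.

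The sequences below are promoters, from 250 bases before to 50 bases after the transcription start, of a gene of liver (Alb), of skeletal muscle (Acta1), of neutrophils (S100a8) and of fibroblasts (Col3a1). They are shown because genes of these lists gave the differences between mice described next. Capitals mark 4 motifs searched on both strands, given with the share of the 18109 windows of genes on the array that held each. The core of a TATA box, spelled TATAAA, was in 9.77% of these windows. The CCAAT box was in 37.4% of them. Letters often held by glucocorticoid response elements, TGTTCT, were in 14.7% of windows. Letters that begin the binding motif of the liver-enriched factor HNF1, GTTAAT, were in 5.30% of windows. Sequences are from RefSeq.
Alb, GRCm38.p6, chr5:90460620-90460919, plus strand: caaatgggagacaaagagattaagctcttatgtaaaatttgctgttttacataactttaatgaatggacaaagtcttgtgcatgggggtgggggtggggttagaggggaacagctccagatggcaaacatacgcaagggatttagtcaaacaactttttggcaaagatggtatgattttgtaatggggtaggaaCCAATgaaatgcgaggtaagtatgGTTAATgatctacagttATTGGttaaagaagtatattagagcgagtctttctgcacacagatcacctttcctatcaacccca
Acta1, GRCm38.p6, chr8:123894726-123895025, minus strand: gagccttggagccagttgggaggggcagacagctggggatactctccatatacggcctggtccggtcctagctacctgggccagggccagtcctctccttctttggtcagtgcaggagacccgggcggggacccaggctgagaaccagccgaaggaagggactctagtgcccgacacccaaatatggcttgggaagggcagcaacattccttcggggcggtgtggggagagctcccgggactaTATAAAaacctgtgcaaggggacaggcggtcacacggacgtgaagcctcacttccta
S100a8, GRCm38.p6, chr3:90668821-90669120, plus strand: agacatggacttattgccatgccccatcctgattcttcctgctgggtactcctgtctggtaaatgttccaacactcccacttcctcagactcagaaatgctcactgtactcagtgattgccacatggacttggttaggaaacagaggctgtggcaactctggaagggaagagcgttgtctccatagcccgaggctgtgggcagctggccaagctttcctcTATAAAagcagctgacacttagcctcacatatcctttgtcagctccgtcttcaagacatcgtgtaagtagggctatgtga
Col3a1, GRCm38.p6, chr1:45311288-45311587, plus strand: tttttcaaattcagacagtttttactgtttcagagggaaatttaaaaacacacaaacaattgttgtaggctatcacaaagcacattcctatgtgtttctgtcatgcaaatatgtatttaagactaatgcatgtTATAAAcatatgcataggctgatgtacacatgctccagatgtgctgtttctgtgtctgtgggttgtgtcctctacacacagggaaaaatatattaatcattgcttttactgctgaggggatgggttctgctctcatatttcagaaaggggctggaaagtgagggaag
The Alb window held the HNF1 letters 32 bases before the start, with a CCAAT box 56 bases before it and another, on the other strand, 15 bases before it. The TATA box core began 7 bases before the annotated start in Acta1, 30 bases before it in S100a8 and 117 bases before it in Col3a1. It was found in 7 of the 23 windows of liver genes and in 5 of the 13 windows of skeletal muscle genes. The HNF1 letters were found in 7 of the 23 liver windows and in 0 of the 13 muscle windows. The liver windows, with a median GC share of 48.7%, also held the CCAAT box in 13 of 23 and TGTTCT in 10. Windows of the glucocorticoid response list held TGTTCT in 4 of 16. Among the 100 genes of highest signal, 73 had a window, and 13 of their 101 windows held the TATA box core, with a median GC share of 60.3% against 58.3% for genes on the array.

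Among genes with a mean of 8 or more, the largest spread was in a liver transcript. Alb, the gene of serum albumin, whose promoter is printed above, had signals of 5.87, 5.42, 5.86, 9.33, 12.80 and 9.15 in mice 1 to 6. Mouse 5 was highest by more than 3 units, mice 4 and 6 were close to each other and mice 1 to 3 were below 6. Its SD of 2.90 was the largest of all genes with a mean of 8 or more. Its own mean of 8.07 passed that floor only through mice 4, 5 and 6. Apoc1, a lipoprotein gene of liver and macrophages, followed the same order at 8.21, 7.77, 8.19, 8.74, 10.20 and 8.70. A list of 30 textbook liver genes was written after Alb had been seen, and 29 were measured. All 29 were highest in mouse 5, as were 15.6% of all genes, and the mean of the list was 4.01, 4.19, 4.66, 6.12, 8.91 and 5.71. Alb itself is counted in the 29, so the count is not independent of the gene that prompted the list. Only 2 of the 29, Alb and Apoc1, had a mean of 8 or more. The others lay below the floor, where the spread between mice is larger. Mouse 4 was above each of mice 1 to 3 in 26 of the 29 and mouse 6 in 22, against 29.5% and 34.4% of all genes. Apoa2, a high-density lipoprotein gene, reached 10.78 in mouse 5 and between 6.82 and 7.86 elsewhere. Cyp2e1, a cytochrome of hepatocytes, reached 9.80 against 6.23 to 7.36. Ttr, a gene of liver and of choroid plexus, was at 4.59 to 5.04 in mice 1 to 3, 7.25 in mouse 4, 11.21 in mouse 5 and 7.78 in mouse 6, and its other 3 probe sets also had mouse 5 highest. Of the 8 choroid plexus genes 3 were highest in mouse 5, Ttr among them, and none had a mean of 8. The source of these transcripts was not tested.

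Skeletal muscle genes and most neutrophil genes were highest in mouse 4. All 14 muscle genes were highest in mouse 4, as were 15.7% of all genes, and the mean of the list was 3.68, 3.88, 4.38, 7.77, 5.73 and 5.25. None of the 14 had a mean of 8, and the spread between mice is larger below it. Acta1, the actin of skeletal muscle, had signals of 6.57, 6.52, 6.96, 9.67, 7.97 and 7.43, and Ckm, muscle creatine kinase, of 6.24, 6.41, 6.87, 8.72, 7.16 and 6.82. Mouse 4 was highest and mouse 5 next in both, while mouse 6 was above mouse 3 in Acta1 but not in Ckm. Over the 6 mice they correlated with r = 0.98 (exact permutation p = 0.0056, adjusted p = 0.031 over 11 pairs, two-sided) and rho = 0.89 (exact permutation p = 0.033, adjusted p = 0.12), with r = 0.82 without mice 4 and 5. Car3, a carbonic anhydrase of muscle and fat, was likewise highest in mouse 4 at 10.22 and between 8.38 and 9.58 in the others. S100a8, a subunit of the calprotectin complex of neutrophils, had signals of 6.26, 6.43, 5.23, 10.21, 8.79 and 7.85, and S100a9, its partner, of 4.99, 5.69, 5.07, 9.44, 7.60 and 7.22. These partners correlated with r = 0.98 (exact permutation p = 0.0028, adjusted p = 0.031) and rho = 0.94 (exact permutation p = 0.017, adjusted p = 0.092), with r = 0.97 without mice 3 and 4. Of the 8 neutrophil genes 5 were highest in mouse 4, and the list had no member with a mean of 8. Mouse 5 was above each of mice 1 to 3 in 5 of the 8 and mouse 6 in 6.

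Glucocorticoid-responsive genes were lowest in the same mouse 4. These genes are switched on by the hormone-bound glucocorticoid receptor, and blood corticosterone varies with the hour and with stress. All 8 had their minimum in mouse 4, as did 15.7% of the genes with a mean of 8 or more, and all 8 had such a mean. After median scaling 7 of the 8 had their minimum there, and with the mean of all probe sets 6. Plin4, a lipid droplet protein gene, had signals of 10.00, 10.02, 10.19, 7.55, 9.37 and 9.09. Sgk1, a kinase, had signals of 12.77, 13.07, 13.37, 11.74, 12.63 and 12.66, and Zbtb16, a transcription factor, of 9.64, 9.59, 9.69, 8.43, 9.48 and 9.94. Mouse 4 was below each of the other mice in all 3. Fkbp5, a chaperone of the receptor itself, was at 10.49, 10.53, 10.57, 9.52, 10.00 and 10.15. A second probe set of Fkbp5 was lowest in mouse 6, at 7.77, with mouse 4 at 7.88. With the first probe set Fkbp5 correlated with Tsc22d3, which encodes GILZ, with r = 0.92 (exact permutation p = 0.013, adjusted p = 0.046) and rho = 0.94 (exact permutation p = 0.017, adjusted p = 0.092), and r was 0.99 without mice 4 and 5. The adjusted p of this r was over 0.05 after quantile normalization (r = 0.90), after median scaling (r = 0.88) and with the mean of all probe sets (r = 0.66). Of the 37 most variable genes, 14 were lowest in mouse 4. Sgk3, Sult1a1, Zfand4 and Hif3a, in no list here, were among them, and so were Slc47a1, Lbp and Igfbp3. Sgk3 was at 9.43 in mouse 4 and at 9.88 to 11.09 in the other mice. The time of day at which each mouse was taken is not given in the sources used here, and its part was not tested.

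**Figure D5:**
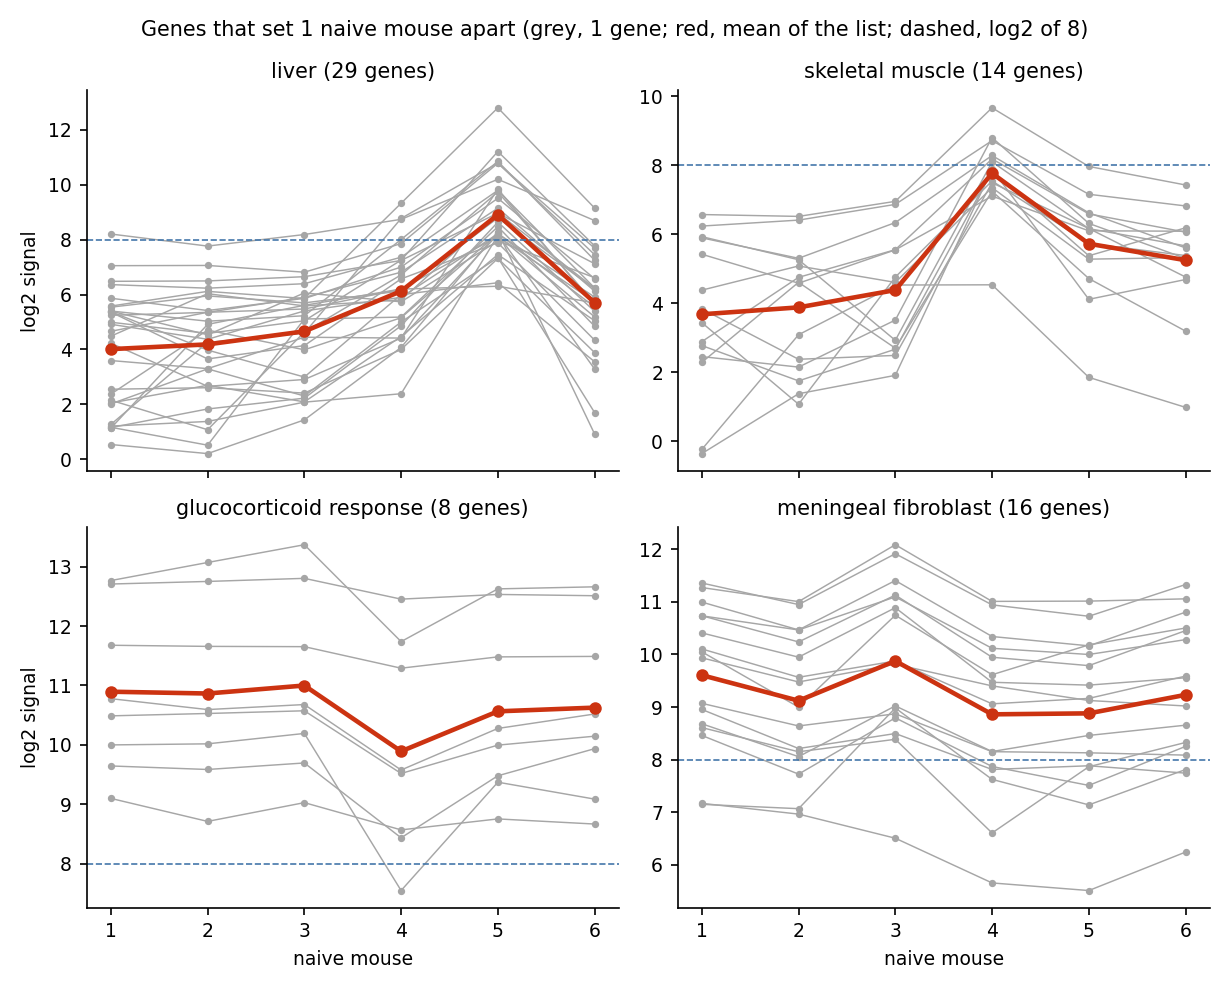
Log2 signal (y axis) in each naïve mouse (x axis) for 4 gene lists, with grey lines for genes, a red line for the list mean and a dashed line at 8. Lines join values of a gene. Liver genes peak in mouse 5, muscle genes peak and glucocorticoid genes dip in mouse 4, and most fibroblast genes peak in mouse 3.

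Most genes of meningeal fibroblasts were highest in mouse 3 and the rest in mouse 1. Fibroblasts of the pia and arachnoid make the collagen-rich sheet that stays attached to a dissected cord. Of the 13 such genes with a mean of 8 or more, 9 were highest in mouse 3 and 4 in mouse 1, while 13.3% of all genes with that mean were highest in mouse 3. Dcn, the proteoglycan decorin, had signals of 11.27, 11.01, 12.09, 11.01, 11.02 and 11.06. Col1a2, a chain of type I collagen, was at 11.36, 10.95, 11.92, 10.94, 10.73 and 11.33, and Col3a1, type III collagen, at 10.05, 9.00, 10.75, 9.61, 10.18 and 10.50. Islr, a secreted fibroblast protein gene, was at 10.89 in mouse 3 and 10.41 in mouse 1 and at 9.42 to 9.95 in the others. Mouse 3 was thus the highest in each. For Col1a1 and Col1a2 r was 0.83 (exact permutation p = 0.036, adjusted p = 0.079), and it was -0.09 without mice 3 and 6, so the relation rests on those mice. MHC class II genes, carried by macrophages and dendritic cells rather than fibroblasts, were also highest in mouse 3, in 5 of 5, as were 17.1% of all genes. H2-Ab1 had signals of 8.52, 7.98, 9.00, 8.24, 7.89 and 8.58, and 6 of 8 perivascular macrophage genes, none with a mean of 8, were highest there too. Slc47a1, Smoc2, Igfbp3, Lbp and Pcolce, among the 37 most variable genes, were highest in mouse 3 or mouse 1.

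Glutamate genes were often highest in mouse 6, and myelin and oligodendrocyte genes often lowest in mouse 5. Of 19 glutamate genes with a mean of 8 or more, 11 were highest in mouse 6, beside 31.6% of all such genes. Grin2b, an NMDA receptor subunit, had signals of 8.28, 8.46, 8.63, 8.78, 8.93 and 9.53, and Dlg4, the scaffold PSD-95, of 10.82, 10.69, 10.72, 11.07, 11.07 and 11.68. Of the 20 GABA and glycine genes with that mean, 6 were highest and 7 lowest in mouse 6. Among them Slc6a11, the GABA transporter GAT-3 of astrocytes, was highest there, at 10.76, 10.80, 10.86, 11.09, 11.42 and 11.92. Gad1, Gad2 and Abat, which make or break down GABA, were lowest in mouse 6, and so was Slc17a6. Mouse 6 was the array with the highest 3' over 5' ratios for Actb, Gapdh and Pcx. Of the 6 cholinergic and motor neuron genes with a mean of 8 or more, Prph, Ache and Chodl were highest in mouse 6, Slc18a3 in mouse 4 and Chrna7 in mouse 5. Of the 22 myelin and oligodendrocyte genes, 11 were lowest in mouse 5, beside 15.6% of all genes with a mean of 8 or more that were lowest in mouse 5. Their differences were small, with a list mean between 12.20 in mouse 5 and 12.42 in mouse 4. Of the 17 endothelial genes with that mean, 10 were lowest in mouse 5.

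Of 17 immediate early genes, which react within hours, 8 were highest in mouse 4, as were 15.7% of all genes, and 3 were lowest there. Fos was at 9.61, 9.68, 9.46, 10.53, 9.95 and 9.86, and Egr1 at 10.49, 10.32, 10.63, 11.19, 10.88 and 10.95. Both were highest in mouse 4, whereas Jun was highest in mouse 1 and Dusp1 lowest in mouse 4. For Fos and Egr1 over the mice r was 0.82 (exact permutation p = 0.036, adjusted p = 0.079) and rho 0.71 (exact permutation p = 0.14, adjusted p = 0.37). The clock gene Dbp was at 11.08, 11.01, 11.13, 11.31, 10.40 and 10.41, with mice 5 and 6 lowest, and its second probe set put the same mice lowest. Nr1d1, which encodes the clock repressor REV-ERBα, was also lowest in mice 5 and 6, at 7.20 and 7.53 against 7.80 to 8.09. For this pair r was 0.85 (exact permutation p = 0.047, adjusted p = 0.087), and -0.35 without mice 5 and 6, so that it rests on those mice. Sensory ganglion genes were all below a mean of 8, where the spread between mice is large, and 5 of 6 were highest in mouse 5, as were 15.6% of all genes, among them Scn11a, a sodium channel of pain neurons, at 7.30 against 4.78 to 5.72.

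Of the 11 pairs of genes measured, 3 passed an adjusted p of 0.05 by Pearson's r and 0 by Spearman's rho, and at the unadjusted 0.05 the counts were 6 and 3. With the mean of all probe sets of a gene 1 pair passed, and without probe sets that may bind several transcripts 0 passed. For Slc6a5 and Slc32a1 r was 0.33 (exact permutation p = 0.59), for Mog and Mag 0.46 (exact permutation p = 0.43), for Ifit1 and Ifit3 0.37 (exact permutation p = 0.48), for Chat and Slc18a3 -0.10 (exact permutation p = 0.87) and for Hba-a1 and Alas2 -0.51 (exact permutation p = 0.30). The number of mice limits these tests, since 6 mice allow no p below 0.0014.

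Principal components summarised the differences over all bright genes. The first principal component of the 9534 genes held 42.0% of the variance, or 35.7% without mouse 6, the second 19.5% and the third 15.5%. On the first, mouse 6 scored 17.57, mouse 5 5.63 and mouse 4 1.06, while mice 1 to 3 lay between -8.70 and -7.64. Alb had the largest positive loading on it, and Sgk3 and Plin4 the largest negative ones. The second set mouse 4 (13.21) apart from mouse 3 (-7.44), and the third mouse 5 (11.71). Mice 1, 2 and 3 resembled each other most, with correlations across genes of 0.991 to 0.992, and the labels give no batch, so whether mice 4 to 6 were handled separately was not tested.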

How the data were processed

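Total RNA of 6 naïve cords was labelled with a 3' kit and hybridised to Affymetrix arrays. The authors processed the arrays with Microarray Suite 5.0 and deposited linear signal intensity per probe set, globally scaled. The scaling target is not given in the sources used here, but the trimmed mean (2% off each end) was 500 on each naïve array. Detection calls were not used here. Signals were log2-transformed. Of 45101 probe sets, 34945 were assigned to 1 gene by the platform annotation, 932 to several and 9211 to none, and 13 controls were left out. For each gene the probe set with the highest mean over the 17 arrays was taken. Median signal was 132 to 145 per array. Array data hold no counts, so precision rests on the number of arrays.

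No groups were compared. The named genes were the 30 with the highest mean, the 30 with the largest and 10 with the smallest SD among means of 8 or more, the 4 highest and 2 most variable of each list, the genes of the pairs, the Hox, sex chromosome and RGM lists, and members of lists counting 5 or fewer. The genes and 41 lists were chosen with earlier results of these data known, and the liver list was written after its first gene was seen. Pearson and Spearman correlations over mice used exact permutation tests over 720 pairings, two-sided, with Benjamini-Hochberg adjustment over 11 pairs. The labels do not say whether mice shared a cage or a day of sampling, so p-values measure only the spread between these samples. Alternatives were quantile normalization, median scaling, other choices of probe set, an offset of 32, floors of 7 and 9 and each mouse left out. The procedures were tested on simulated data. Promoter windows of 300 bases are from RefSeq. Python 3.11.15, numpy 2.4.6, pandas 2.3.3, scipy 1.17.1 and matplotlib 3.10.9 were used.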

Additional observations from a re-analysis of the deposited data

Results flagged for a closer look

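Of 315 values examined, 35 had 1 mouse separated from the other 5 by a gap beyond Dixon's critical value, which chance gives in about 1 of 20 groups. Such gaps were found in 7.00% of the 9534 genes with a mean of 8 or more and in 11.0% of genes with a mean under 6. The values examined included 295 named genes, some of them named for their large SD, so 35 is not read as an excess. No explanation was tested.

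In mouse 6, 11 values stood apart. Tuba1a (14.74), Nefh (13.88), Ache (10.92), Chodl (10.26), Gabbr1 (12.79), Gria4 (11.79) and Bag3 (10.12) were high, and Slc17a6 (12.14) and Sdhd (11.26) low. Its log2 ratios of 3' over 5' signal for Actb (0.87) and Gapdh (-0.31) were high.

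In mouse 5, Apoa2 (10.78), Cyp2e1 (9.80) and Scn11a (7.30) were high, and Mag (12.69), Lamp5 (12.70), Slc18a3 (8.83) and 1700123O20Rik (9.70) low. In mouse 4, Ckm (8.72) and Alas2 (6.69) were high, and Zfand4 (8.01), Zbtb16 (8.43) and Krt10 (8.51) low. Dcn (12.09) was high in mouse 3. Rhbdd3 (6.39), Ppp1cc (12.86) and Ciita (1.91) were low in mouse 2.

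In mouse 1, Snap25 (14.86), Ptgds (14.83), Aldoc (14.64), Rasa1 (10.60) and Hoxb4 (8.02) were high, and Slc1a3 (8.81), Hbb-b2 (2.25) and Ms4a1 (3.10) low. The gaps of Ppp1cc, Rasa1 and 1700123O20Rik were within ranges of 0.04, 0.05 and 0.03.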

How the results depend on the processing

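No paired analysis was possible because only 1 group entered. The count of pairs past an adjusted p of 0.05 was 3, but 1 with the mean of all probe sets, 0 without probe sets ending in _s_at or _x_at and 0 to 0 with each mouse left out, where 5 mice allow no p below 0.0083. Genes with an SD over 0.5 numbered 37, 92 with a floor of 7, 19 with a floor of 9 and 33 to 49 with each mouse left out. With no filter on dim genes they numbered 4507. The first component held 42.0% of the variance, 36.2% with a floor of 7, 24.0% with no filter on dim genes, 35.7% to 51.7% with each mouse left out and 54.0% without mice 4, 5 and 6, a setting chosen after seeing the data. Of the 100 brightest genes, 55 were shared with the mean of all probe sets, 74 without _s_at and _x_at probe sets and 96 to 100 otherwise. The cause was not tested. Of 546 list percentiles 505 moved by less than their spread. Of 131 correlations of pairs, 107 kept their side of the threshold, 24 lost it and 0 reversed. Only the 3 pairs that passed in the main setting could lose it, so the 107 also count pairs that had not passed.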
